A study of Mus musculus with 5 samples.

Results

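The 10 transcripts described here encode cardiac sarcomere proteins, a regulator of the calcium pump and the 2 natriuretic peptides of heart muscle: Myh6, Myh7, Tnnt2, Tnni3, Actc1, Ttn, Mybpc3, Pln, Nppa and Nppb. They were taken by symbol from the 31053 genes of the count matrices, and all 10 were present. Raw unique molecular identifiers (UMIs, 1 per captured transcript molecule) of these genes were counted in single-cell libraries of enzymatically digested mouse heart, from which nucleated live cells had been sorted (DRAQ5+DAPI-). The control group was Ctla4+/+Pdcd1-/- (2 libraries, control 1 and 2, from 4 pooled mice) and the disease group was Ctla4+/-Pdcd1-/- (3 libraries, disease 3, 4 and 5, from 10 pooled mice), a model of immune checkpoint inhibitor myocarditis. The loss of Pdcd1 was therefore common to both groups, and the groups differed in 1 allele of Ctla4. The genotype labels of 3 libraries count upward (Pdcd2-/-, Pdcd3-/-) where the series text gives Pdcd1-/-, so groups rest on the Ctla4 part of the label. Age, sex and strain are not given in the sources used here.

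In a cardiac muscle cell the thick filament of the sarcomere is built from myosin, of which Myh6 encodes the alpha and Myh7 the beta heavy chain, and the thin filament from cardiac actin (Actc1) with its troponin switch (Tnnt2, Tnni3). Titin (Ttn) spans the sarcomere as a spring, and myosin-binding protein C (Mybpc3) sits on the thick filament. Phospholamban (Pln) restrains the calcium pump of the sarcoplasmic reticulum, and the natriuretic peptides (Nppa, Nppb) are secreted hormones of stretched heart muscle, with Nppa high in the atria. Alpha myosin is the self-antigen recognised by T cells in this model. Adult cardiomyocytes are large and fragile, so a sorted suspension of digested heart holds few of them, and their RNA can occur as free RNA in droplets of other cells.

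The assay reads the 5' end of each transcript, so a UMI is assigned near the start of the gene. The 250 bases before the start in RefSeq are shown for 4 members, Myh6, Tnnt2, Mybpc3 and Nppa. Myh6 is the self-antigen, Tnnt2 is used below as the reference for the other members, and Mybpc3 has an immune gene as neighbour. Nppa had the largest genotype difference of the members over all retained barcodes, which did not pass adjustment. All 10 members matched the RefSeq promoter table (GRCm38.p6), and the start nearest to that of the GENCODE vM21 gene model was taken. It is the same in both for Mybpc3 and Nppa, lies 20 bases before the GENCODE start for Tnnt2, and lies 320 bases after it for Myh6, so the Myh6 stretch falls inside the GENCODE gene model. Capitals mark matches, on either strand, to TATAAA (the TATA box), the MEF2 motif (CTA and TAG with 4 bases of any kind between them), CATTCC (the MCAT element), AGATAA (bound by GATA factors) and the serum response element core known as CArG.
Myh6 chr14:54966608-54966857 (minus strand): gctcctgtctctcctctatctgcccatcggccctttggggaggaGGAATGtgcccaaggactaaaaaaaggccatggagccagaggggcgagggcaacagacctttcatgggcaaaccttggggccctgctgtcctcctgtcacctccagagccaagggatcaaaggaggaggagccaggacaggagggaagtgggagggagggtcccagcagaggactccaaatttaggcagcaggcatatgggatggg
Tnnt2 chr1:135836084-135836333 (plus strand): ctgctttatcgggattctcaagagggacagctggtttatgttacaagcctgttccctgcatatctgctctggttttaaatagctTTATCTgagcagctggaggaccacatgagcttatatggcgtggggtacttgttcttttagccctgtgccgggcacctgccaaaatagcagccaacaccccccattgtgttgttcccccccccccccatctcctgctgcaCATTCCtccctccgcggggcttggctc
Mybpc3 chr2:91117894-91118143 (plus strand): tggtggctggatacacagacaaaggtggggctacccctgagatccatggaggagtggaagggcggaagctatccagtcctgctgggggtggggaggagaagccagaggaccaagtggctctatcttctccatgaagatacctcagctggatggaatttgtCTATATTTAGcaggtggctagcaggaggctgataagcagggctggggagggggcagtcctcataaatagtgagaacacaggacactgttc
Nppa chr4:148000472-148000721 (plus strand): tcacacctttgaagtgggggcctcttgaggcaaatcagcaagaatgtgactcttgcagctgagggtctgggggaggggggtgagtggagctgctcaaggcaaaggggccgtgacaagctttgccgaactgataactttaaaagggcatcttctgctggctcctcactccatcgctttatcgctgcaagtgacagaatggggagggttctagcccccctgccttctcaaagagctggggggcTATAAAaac

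Of the 10 members, 3 held TATAAA in these 250 bases, against 12.4% of the 32851 promoters in the table. Matches to CATTCC were found in 4 members against 12.6% of all promoters, and to AGATAA in 3 against 9.99%. The MEF2 motif was found in 2 members (3.20% of all promoters) and the CArG core in 1, Actc1 (1.47%). No motif was shared by all members, and a match describes letters only. In GENCODE, Myh6 lies on chromosome 14 at 54941921 to 54966927 on the minus strand, with Myh7 3756 bases upstream on the same strand (54970684 to 54994626). Of the windows of 50 bases in the Myh7 transcript, 22.2% also occur in Myh6, but none of those in its first 500 bases, near which 5' reads fall. Mybpc3 lies on chromosome 2 at 91118144 to 91136516 on the plus strand, and Spi1, the gene of a myeloid transcription factor, ends 2387 bases before it on the same strand. Tnni3 overlaps Dnaaf3 on the same strand, so reads of this pair could be shared. Overlaps with at least 1 gene on the opposite strand occur for 6 members, for Actc1 only with a gene absent from the count matrices. Whether strand was used in the counting is not given in the sources used here.

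The 5 libraries held 47319 cell barcodes and between 24991704 and 55053988 UMIs each. Of these barcodes, 38312 were retained (at least 500 UMIs and 200 genes, and at most 10% of UMIs from mitochondrial genes, whose symbols start with mt-), and 8873 passed the first 2 limits with over 10% mitochondrial UMIs. High-mitochondrial barcodes made up 11.4% to 32.4% of a library, most in disease 3, and they were shallow, with median non-mitochondrial UMIs of 982 to 1241 per library against 3240 to 4466 in retained barcodes. A retained barcode was assigned to a lineage where at least 3 of 8 marker genes had a UMI and no other lineage came within 2 markers, which placed 34894 barcodes. Barcodes with similar numbers of markers of 2 lineages were left out by this margin, and no doublet caller was run. There were 1208 barcode sequences that occurred in more than 1 library. Pdcd1 UMIs were present in T cell barcodes of all 5 libraries, between 73.7 and 1084 CPM (UMIs per 1000000 non-mitochondrial UMIs), and Ctla4 between 79.2 and 663 CPM; where the deleted part lies is not given in the sources used here, so these 5' counts check no label. Libraries are pools of hearts, and p-values measure the spread between these libraries.

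Members gave 60279 UMIs in all, and few of them came from a barcode that looked like an intact cardiomyocyte. By library the members had 16094 and 9902 UMIs in control 1 and 2, and 13468, 7330 and 13485 in disease 3, 4 and 5. A single barcode, in disease 3, stood out with 1420 member UMIs among 10524 non-mitochondrial UMIs, or 13.5%. It held 15559 UMIs over 3313 genes, and 32.4% of its UMIs were mitochondrial, so the 10% limit removed it. The barcode with the next most member UMIs held 113, and no retained barcode exceeded 104.

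That barcode carried 626 UMIs of Ttn, 312 of Myh6, 144 of Nppa, 122 of Actc1, 95 of Tnnt2, 91 of Tnni3, 18 of Mybpc3 and 12 of Pln. It had 0 UMIs of Myh7 and of Nppb. Of all UMIs in disease 3 it supplied 58.5% for Nppa, 51.1% for Ttn and 24.7% for Myh6. The disease 3 values of these 3 members over all barcodes and in high-mitochondrial barcodes therefore depend on 1 barcode, whereas retained values do not contain it. The atrial myosin light chains Myl7 and Myl4 and the atrial calcium pump regulator Sln were also in it, with 240, 161 and 45 UMIs, whereas the ventricular light chains Myl2 and Myl3 had 0. With these 0 counts it cannot serve as a reference for ventricular muscle. Among barcodes with at least 500 UMIs and 200 genes, another 44 took at least 5% of their non-mitochondrial UMIs from 23 other cardiomyocyte genes. Over all 45, the median was 628 UMIs with 20.3% mitochondrial, and the largest besides the barcode above held 1312 UMIs. There was no gap at the limit of 5%: the highest barcode outside it reached 4.90%, the lowest inside 5.01%, and 122 barcodes lay between 2% and 5%. These barcodes, called myocyte-rich, were kept out of the lineages.

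Outside the myocyte-rich barcodes, member UMIs were far denser in endothelial barcodes than in fibroblasts or lymphocytes. Values are given as CPM, scaled to the non-mitochondrial UMIs of the lineage in that library. In endothelial barcodes the 10 members summed to 863 and 796 CPM for control 1 and 2 and to 846, 589 and 807 CPM for disease 3, 4 and 5. Fibroblast barcodes had 49.1, 48.3, 59.6, 31.3 and 61.5 in the same order. T cell barcodes had 39.1, 38.2, 32.9, 19.2 and 55.3, the lowest of the main lineages. Monocyte/macrophage barcodes had 120, 157, 121, 115 and 115, between the endothelial and fibroblast values in every library. Endothelial CPM exceeded fibroblast CPM 13.1 to 18.8 times and macrophage CPM 5.05 to 7.20 times within a library.

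**Figure D1:**
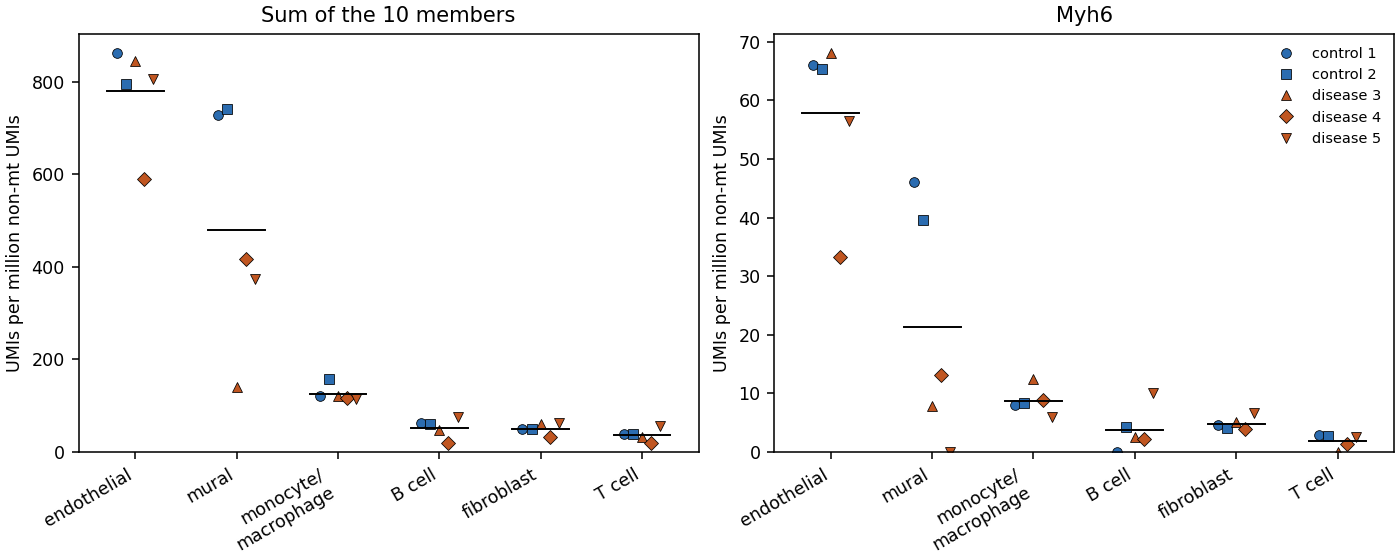
Summed CPM of the 10 members (left) and Myh6 CPM (right) in retained barcodes of 6 lineages; each point is 1 library (blue control, orange disease) and the line is the mean of 5 libraries. Endothelial barcodes sit between 589 and 863 for the sum and between 33.2 and 68.0 for Myh6, above every fibroblast, macrophage, B cell and T cell value; mural barcodes spread from 139.6 to 740.9 for the sum.

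Of retained member UMIs, endothelial barcodes held 70.6% and 82.1% for control 1 and 2 and 80.0%, 56.3% and 76.9% for disease 3, 4 and 5. Their share of all non-mitochondrial UMIs was 21.9%, 39.3%, 33.1%, 12.4% and 28.2%. Disease 4 had the lowest of both shares, and its retained barcodes had the lowest summed CPM, 130 against 270 to 384 in the other 4 libraries. Between lineages, 8 of the 10 members had a higher endothelial CPM in every library than any fibroblast value, where 21.4% of 16129 genes with at least 20 UMIs did. The count was 8 against T cells (36.5% of genes), 8 against B cells (39.9%) and 7 against macrophages (33.6%), and 3 against mural barcodes (20.3%), of which there were 29 to 60 per library. No member was lower without overlap in any of the 5 comparisons.

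Of the thick filament genes, Myh6 had 66.1 and 65.4 CPM in control and 68.0, 33.2 and 56.4 CPM in disease endothelial barcodes, lowest in disease 4. Fibroblast Myh6 was 4.54, 4.01, 5.11, 3.84 and 6.61 CPM, and T cell Myh6 was 2.91, 2.73, 0, 1.28 and 2.45 CPM from 30 UMIs in all. Fibroblasts and T cells therefore did not overlap endothelial barcodes for the self-antigen transcript. Myh7, the slow myosin of fetal and failing heart, was nearly absent everywhere, with 10 and 4 UMIs over all barcodes of control 1 and 2 and 19, 12 and 14 over those of disease 3, 4 and 5. Mybpc3 had 14.1, 13.1, 11.0, 6.67 and 13.2 CPM in endothelial barcodes and 0.482 to 0.892 CPM in fibroblasts.

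Of the thin filament genes, Tnnt2 (the troponin subunit that binds tropomyosin) had 231, 202, 235, 159 and 212 CPM in endothelial barcodes against 7.93 to 17.4 CPM in fibroblasts. Tnni3, the inhibitory troponin subunit, had 208, 188, 192, 128 and 185 CPM against 5.37 to 12.6. Actc1 had 208, 218, 205, 163 and 206 CPM against 5.93 to 14.4. In all 3 genes disease 4 was lowest among the endothelial values, and no endothelial value came near the fibroblast range. Ttn had 35.4, 32.1, 40.5, 23.5 and 28.3 CPM in endothelial and 2.95 to 5.20 CPM in fibroblast barcodes.

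Pln did not follow most sarcomere genes in mural barcodes (pericytes and smooth muscle), and Tnnt2 departed from them in part. Over all libraries mural Tnnt2 was 158 CPM against 212 in endothelial barcodes, and it exceeded endothelial Tnnt2 in control 2 and disease 4. Tnni3 and Actc1 had 59.6 and 85.3 CPM in mural barcodes against 185 and 203 in endothelial ones. Endothelial Pln was 96.5, 73.9, 90.2, 71.9 and 92.8 CPM, and fibroblast Pln 3.18 to 6.39 CPM. Mural Pln was 221, 260, 69.8, 169 and 151 CPM, from only 29 to 60 barcodes per library, and exceeded endothelial Pln in 4 of 5 libraries. Phospholamban is also a gene of smooth muscle, where it restrains the same pump. Casq2, a calcium store protein shared by both muscle types, had 488 CPM in mural barcodes over all libraries against 8.55 in endothelial ones, and the energy supply gene Mb, a cardiac and skeletal gene, 60.9 against 144.

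The natriuretic peptides were sparse. Nppa had 0.547 and 1.44 CPM in control and 2.37, 2.33 and 8.58 CPM in disease endothelial barcodes, from 6, 13, 20, 14 and 85 UMIs. Fibroblast Nppa was 0.239, 1.65, 1.64, 0.400 and 1.56 CPM, which overlapped the endothelial range; control 1 and disease 4 lay below it. Nppb had 2.00, 1.78, 0.711, 1.67 and 2.93 CPM in endothelial barcodes and at most 0.297 CPM in fibroblasts. Nppa and Myh7 were the 2 members whose endothelial and fibroblast ranges overlapped.

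As a share of barcodes, each thinned to 1000 non-mitochondrial UMIs, endothelial barcodes were again highest in every library, and macrophages lay above fibroblasts and T cells in every library. At least 1 member UMI was found in 39.9%, 39.7%, 37.8%, 31.6% and 40.4% of endothelial barcodes, with shallower barcodes left out (85 to 238 per library). The share was 3.56% to 5.91% in fibroblasts (9 to 34 left out), 9.64% to 14.3% in macrophages (27 to 75 left out) and 1.64% to 6.10% in T cells (0 to 67 left out), from as few as 2 of 122 and 5 of 82 barcodes, so the order of T cells and fibroblasts is not read from it. In mural barcodes it was 10.0% to 33.3%, from 25 to 56 barcodes per library (3 to 4 left out). Without thinning, the median depth was 2683 non-mitochondrial UMIs in endothelial and 5673 in fibroblast barcodes, and the shares were 46.7% to 60.8% and 11.6% to 19.5%. The lineage with the shallower barcodes had the higher share on both counts.

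Within the endothelial barcodes member UMIs were unevenly spread. The mean was 2.56 per barcode over 13788 barcodes, 42.5% had 0, and the 10% of barcodes with most held 53.5% of the UMIs. In fibroblasts 83.6% of 10911 barcodes had 0. The members came together: at 1000 UMIs, Actc1 was present in 29.0% to 36.2% of endothelial barcodes that had Tnnt2 and in 9.22% to 13.0% of those without it. For Myh6 the shares were 4.37% to 14.6% with Tnnt2 and 2.54% to 4.42% without, and in each library the first was higher.

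Depth and member CPM were ordered differently in endothelial barcodes and fibroblasts. When the endothelial barcodes of a library were ordered by depth and cut into 4 equal groups, the shallowest had 441 to 819 summed member CPM and the deepest 596 to 906, higher in 4 of 5 libraries. In fibroblasts the shallowest group had 82.0 to 95.5 and the deepest 19.0 to 59.1, lower in 5 of 5. In UMIs per barcode, fibroblasts went from 0.189 to 0.255 in the shallowest to 0.197 to 0.619 in the deepest group, and endothelial barcodes from 0.460 to 1.15 to 3.19 to 6.13.

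The makeup of the member UMIs was compared between lineages by setting each member against Tnnt2 in the pooled libraries. Of the 9 others, Tnni3, Actc1, Myh6 and Pln differed least between endothelial, fibroblast, macrophage and T cell barcodes. Tnni3 was 87.4, 75.2, 90.3 and 74.6 per 100 Tnnt2 UMIs in these lineages, in that order, and Actc1 was 95.8, 81.9, 91.9 and 95.2. Myh6 was 28.2, 36.9, 27.7 and 23.8. The intact-looking barcode differed from all of them, with 328 Myh6 and 659 Ttn UMIs per 100 of Tnnt2. The other 44 myocyte-rich barcodes had 16.8 and 12.3, nearer to the endothelial 28.2 and 15.3. Relative to Tnnt2, Myh6 and Ttn were thus lower in these 4 lineages than in the 1 barcode.

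**Figure D2:**
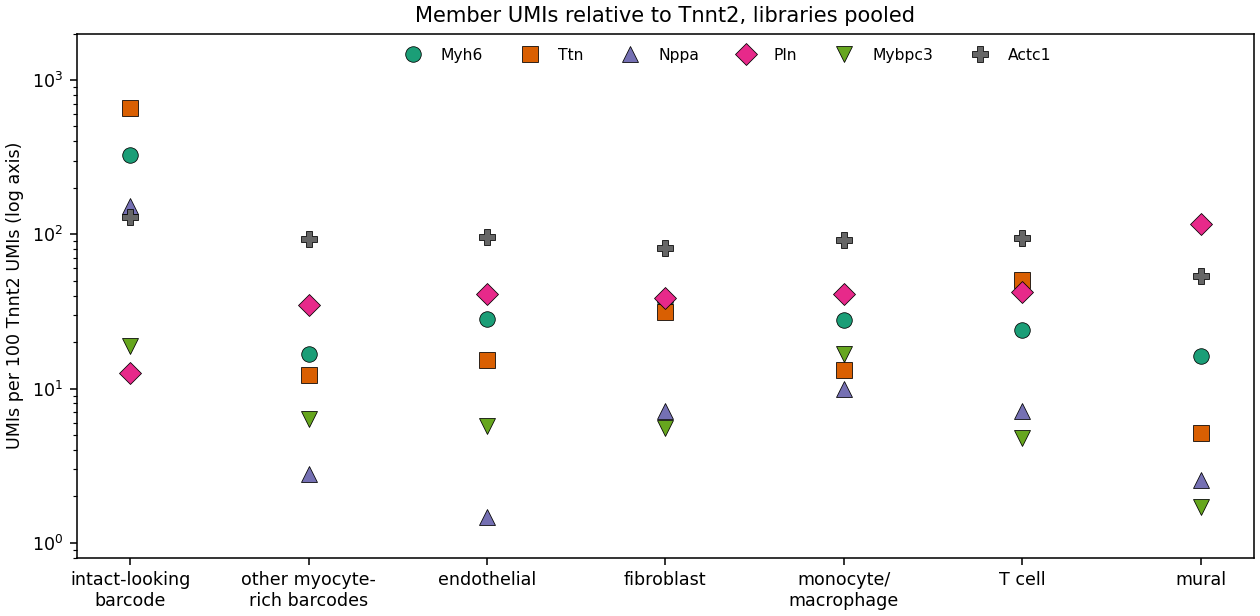
UMIs of 6 members per 100 Tnnt2 UMIs (log axis) in the intact-looking barcode, the other myocyte-rich barcodes and 5 lineages, libraries pooled; a member at 0 is not drawn. Myh6 stands at 328 in the single barcode and between 16.2 and 36.9 elsewhere, Pln at 117 in mural barcodes, and Mybpc3 at 16.8 in macrophages.

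The other members differed more between lineages, and Pln stood apart in mural barcodes. Pln was 117 per 100 Tnnt2 in mural barcodes and 38.7 to 42.1 in endothelial, fibroblast, macrophage and T cell barcodes, and in high-mitochondrial mural barcodes it reached 480. Mural Tnni3 and Actc1 were 37.6 and 53.8 per 100 Tnnt2, and 18.0 and 19.7 in high-mitochondrial mural barcodes. Tnnt2 was thus high relative to both in mural barcodes, so mural ratios to Tnnt2 depend on the reference. Ttn was 50.8 in T cells, from 64 UMIs, and 31.2 in fibroblasts, from 270, against 15.3 in endothelial and 13.3 in macrophage barcodes. Nppa was 9.96 in macrophages, 7.18 in fibroblasts and 7.14 in T cells against 1.47 in endothelial barcodes. Mybpc3 was 16.8 in macrophages, from 167 UMIs, against 5.72 in endothelial and 5.56 in fibroblast barcodes, and 10 UMIs of Mybpc3 against 14 of Tnnt2 were found in neutrophils (71.4). The gene just upstream of Mybpc3, Spi1, had 477 CPM in macrophages and 810 in neutrophils against 6.66 in endothelial barcodes; it was looked up after the Mybpc3 values were seen. Nppb ranged from 0.884 to 2.38 and Myh7 from 0.298 to 0.810 over the 4 lineages, both lowest in endothelial barcodes and with few UMIs elsewhere. Whether reads of Spi1 transcripts contribute to Mybpc3 counts was not tested.

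Macrophages engulf dying cells, and the level of member RNA in them was compared with that in other lineages of the same library (edgeR's quasi-likelihood test on UMI sums, library as a block, Benjamini-Hochberg adjustment over all genes, adjusted p below 0.05 called). Against endothelial barcodes, 8 of 9 members tested were lower in macrophages, where 40.5% of 13879 genes were. The median over the members was -2.35 on the log2 scale against -0.14 over all genes. With plain library totals 8 members were again lower, the median of all genes was -0.45, and calls over all genes went from 4514 higher and 5624 lower to 3425 and 7389. Myh6 had 7.97, 8.35, 12.4, 8.87 and 5.88 CPM in macrophages, a log2 difference of -2.35 (SE 0.19, edgeR adjusted p = 4.7e-07). Tnnt2, Tnni3, Actc1, Ttn and Pln differed by -2.31 to -2.53. Mybpc3 differed less, by -0.85 (SE 0.25, edgeR adjusted p = 0.0099), and its call was lost without control 1 (-0.67, adjusted p = 0.065).

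Nppa was the member not called, at 1.62, 1.99, 3.63, 3.47 and 4.87 CPM in macrophages, with a log2 difference of 0.60 (SE 0.32, edgeR adjusted p = 0.113). Without disease 5 it was called higher in macrophages (1.08, adjusted p = 0.014). Counted as UMIs per barcode, 6 members were lower and Nppa was called higher (1.32), with 7520 genes higher and 2718 lower; macrophage barcodes were deeper (median 5927 against 2683 non-mitochondrial UMIs).

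Against T cells, 7 of 8 members tested were higher in macrophages, where 33.6% of 11607 genes were. Per barcode the count of members was also 7, and calls over all genes went from 3903 higher and 3471 lower to 5480 and 1972. Myh6, Tnnt2, Tnni3, Actc1 and Pln differed by 1.79 to 2.10 on the log2 scale, with edgeR adjusted p between 9.7e-06 and 0.00017. Nppa differed by 2.64 (SE 0.52, edgeR adjusted p = 0.00051) and Mybpc3 by 3.81 (SE 0.50, edgeR adjusted p = 1.5e-05). Ttn did not pass, at 3.45, 6.36, 3.33, 3.87 and 5.07 CPM in macrophages and 7.44, 5.46, 13.5, 2.16 and 3.50 CPM in T cells (log2 difference -0.18, SE 0.41, edgeR adjusted p = 0.73). The 2 Ttn ranges overlapped, with disease 3 highest among the T cell values.

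Endothelial barcodes were then divided by UMIs of genes known from different vascular beds; these genes were chosen after values were seen. Barcodes with UMIs of both Car4 and Gpihbp1, genes of heart capillaries, had summed member CPM of 1009, 915, 1008, 692 and 907. The remaining endothelial barcodes had 665, 610, 580, 438 and 648, lower in 5 of 5 libraries. Barcodes with Npr3 and Cytl1, found together in endocardium, had 210, 185, 35.9, 23.5 and 58.2, from only 9 to 30 barcodes per library. All 5 were below the remaining barcodes (872, 805, 856, 593 and 816). Each of these endocardial counts rested on 1 to 34 member UMIs, and the exact Poisson interval in disease 4 reached from 0.594 to 131 CPM, which covers counting error only.

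Barcodes with Vwf and Plvap, genes of larger veins and fenestrated vessels, had 185, 190, 240, 37.7 and 127 CPM in 16 to 41 barcodes per library. Barcodes with the arterial genes Gja4 and Sox17 had 680, 530, 554, 422 and 633, against 879, 817, 867, 601 and 820 in the rest. Barcodes with UMIs of both genes of a pair were deeper in every split, for example a median of 3984 to 4791 non-mitochondrial UMIs for Npr3 and Cytl1 against 2242 to 3026. Deeper barcodes thus had the higher member CPM in the split by Car4 and Gpihbp1 and the lower in the other 3. These divisions describe barcodes within libraries, and no test over libraries was made.

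**Figure D3:**
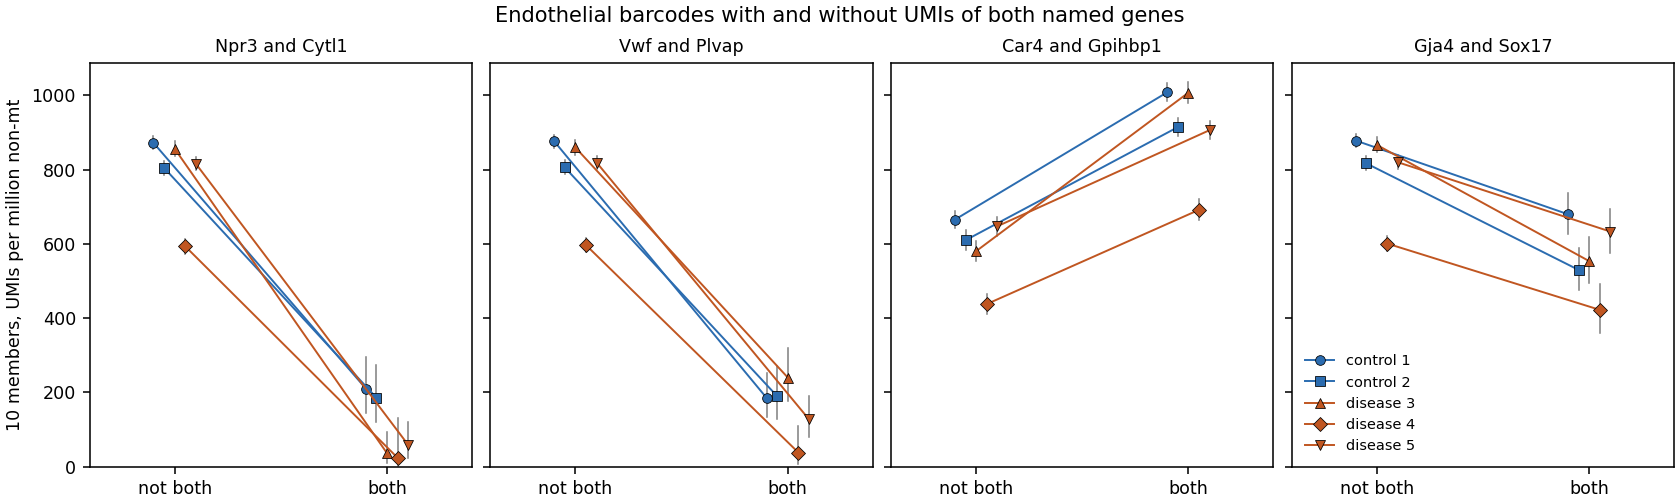
Summed member CPM in endothelial barcodes with UMIs of both named genes and in the remaining endothelial barcodes; lines join the 2 values of 1 library and grey bars are exact Poisson intervals of the counts. Lines rise for Car4 and Gpihbp1, to 692 to 1009, and fall for the other 3 pairs.

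Other cardiomyocyte genes were compared in the same way, against 21.4% of all genes higher and 21.8% lower in endothelial than in fibroblast barcodes without overlap. Of 15 further sarcomere and Z-disc genes, 13 had endothelial values above all fibroblast values without overlap, as did 8 of 8 genes of myocyte energy supply. The essential light chain Myl3 had 192 CPM in endothelial and 9.59 in fibroblast barcodes over all libraries, and the regulatory light chain Myl2 233 and 12.1. Of 10 genes of calcium handling and excitation, 4 were higher and 3 lower in endothelial than in fibroblast barcodes. The ryanodine receptor Ryr2 was among the higher (4.20 against 0.761 CPM), whereas the exchanger Slc8a1 had 0.948 in endothelial and 6.94 in fibroblast barcodes. Of 8 cardiac transcription factors, 3 were higher and 3 lower, and Nkx2-5, which is restricted to myocytes in the adult heart, had 0.948 against 0.107 CPM. Among 7 genes that process or bind natriuretic peptides, 3 were higher in endothelial barcodes, among them the receptor Npr1 (75.3 against 19.2 CPM), and 2 lower, the peptide Nppc (0.293 against 12.3) and the protease Mme (0.790 against 28.9).

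Genes were ranked by how closely their levels followed Myh6 over 27 lineage and library sums (those with at least 50 barcodes). Over 13339 genes with at least 200 UMIs, ranked by Pearson correlation of log2(CPM + 1), the 10 closest that are no members were Etl4 (0.94), Tcim (0.93), Nostrin (0.92), Plxnd1 (0.92), Dysf (0.92), Cav2 (0.92), Hspb6 (0.92), Kitl (0.91), Pgam2 (0.91) and Tal1 (0.91). Nostrin and Cav2 are genes of endothelial membrane vesicles, and Pgam2 and Hspb6 are muscle genes. Actc1 ranked 4 (0.92), Tnnt2 12 (0.91), Tnni3 25 (0.89) and Pln 28 (0.89). Mybpc3 (0.71, rank 833), Ttn (0.62, rank 1669) and Nppa (0.38, rank 4616) were less alike. The sums share libraries and lineages, so these values are a description.

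In barcodes over 10% mitochondrial UMIs, which are often taken as damaged cells and discarded, members took a larger part of the non-mitochondrial UMIs. Summed over the members, control 1 and 2 had 979 and 1036 CPM and disease 3, 4 and 5 had 1210, 506 and 1031 CPM, against 270, 384, 350, 130 and 298 in retained barcodes. All 5 libraries were higher, by edgeR's quasi-likelihood test with the library as a block 9 of 10 members passed, and 29.1% of 16419 genes were called higher. The median over the members was 1.31 on the log2 scale against 0.07 over all genes.

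**Figure D4:**
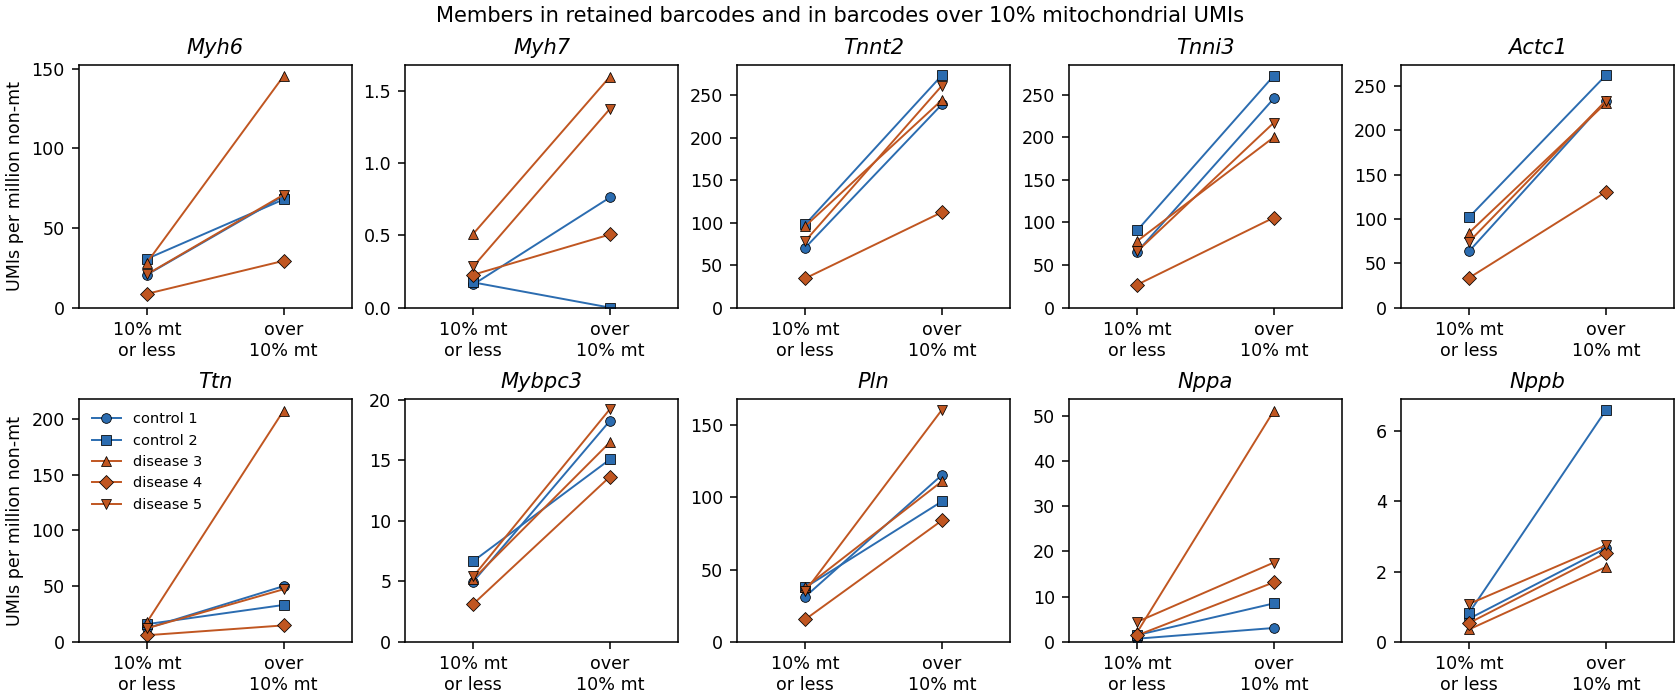
CPM of each member in retained barcodes (10% or less mitochondrial UMIs) and in barcodes over 10%; lines join the 2 values of 1 library (blue control, orange disease), and each panel has its own linear axis from 0. All lines rise except Myh7 in control 2, and disease 3 rises furthest for Ttn (17.5 to 207) and Nppa (2.12 to 51.1).

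Myh6 rose from 20.6 and 30.6 CPM in retained control barcodes to 70.1 and 67.9, and from 28.2, 8.64 and 20.9 in disease to 145, 29.3 and 70.8 (log2 difference 1.33, SE 0.16, edgeR adjusted p = 3.4e-05). Without the intact-looking barcode the disease 3 value was 62.5 CPM and the difference 1.05. Tnnt2 rose from 70.5, 97.9, 95.9, 34.4 and 78.4 CPM to 239, 273, 244, 112 and 261 (1.13, SE 0.10, edgeR adjusted p = 3.5e-06). Tnni3 (1.23), Actc1 (1.18), Mybpc3 (1.29) and Pln (1.42) rose by similar amounts. For Tnnt2, Tnni3, Actc1, Mybpc3, Pln and Nppb the 2 classes did not overlap. Pln, for example, was at 15.5 to 37.6 CPM in retained and 84.0 to 161 in high-mitochondrial barcodes. How many of all genes had classes without overlap was not counted.

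Ttn rose from 12.1, 15.8, 17.5, 5.85 and 12.1 CPM to 49.9, 33.0, 207, 14.7 and 47.1 (1.69, SE 0.31, edgeR adjusted p = 0.00077). Nppa rose from 0.679, 1.48, 2.12, 1.43 and 4.41 CPM to 3.05, 8.49, 51.1, 13.2 and 17.5 (2.59, SE 0.38, edgeR adjusted p = 0.00014). Disease 3 was the highest for both, and without its intact-looking barcode its values were 40.8 CPM for Ttn and 12.8 CPM for Nppa. With that barcode left out the log2 differences were 1.11 for Ttn and 2.02 for Nppa, both still called. Nppb rose by 1.69 (SE 0.35, edgeR adjusted p = 0.0015), and Myh7 did not pass (1.30, SE 0.52, edgeR adjusted p = 0.051).

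These are parts of a smaller whole. Counted per barcode, high-mitochondrial barcodes held about as many member UMIs as retained ones: the ratio for Myh6 was 0.903, 0.657, 1.58, 1.06 and 1.04, and 0.678 in disease 3 without the intact-looking barcode. On that scale 201 genes were called higher and 12949 lower, 1 member, Nppa, was called higher, and Tnnt2, Tnni3 and Actc1 turned to -0.15, -0.05 and -0.10 on the log2 scale, none of them called. With plain library totals in place of TMM factors, which took the median of all genes from 0.07 to 0.54, all 10 members were called higher, and the split of all calls went from 4778 higher and 4393 lower to 8360 and 2161. The rise was graded: over all barcodes the summed CPM was 135 up to 2.5% mitochondrial UMIs, 243 up to 5%, 496 up to 10%, 707 up to 15%, 1032 up to 25% and 4375 above, or 1764 there without myocyte-rich barcodes. Within endothelial barcodes it went from 599 to 2187 over the same steps, and within fibroblasts from 24.4 to 603, while member UMIs per barcode went from 2.37 to 1.62 in endothelial barcodes and from 0.203 to 0.465 in fibroblasts. These values pool the libraries, and single libraries did not rise at every step. Endothelial barcodes of disease 4 had 1081 CPM up to 15%, 864 up to 25% and 931 above. Fibroblasts of disease 5 fell from 523 up to 25% to 139 above, the latter from 18 barcodes.

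Whether this rise differed between the genotypes was tested as an interaction of class and group. No member was called (edgeR, 0 of 10; 0.164% of 16419 genes were), and 0 members had an unadjusted p below 0.05. The largest difference was for Nppa, 0.98 higher in disease (SE 0.80, edgeR adjusted p = 0.71), followed by Ttn (0.90, SE 0.53) and Myh6 (0.54, SE 0.27, edgeR adjusted p = 0.48). Without the intact-looking barcode Nppa stood at 0.23, Myh6 at 0.07 and Ttn at -0.09, and without disease 3 Ttn stood at 0.05. With no filter on low counts, and with that barcode in, 1 member was called higher, Ttn (0.88, edgeR adjusted p = 0.019).

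No member differed between the genotypes after adjustment in any of 6 fits (edgeR's quasi-likelihood test on UMI sums, 2 control against 3 disease libraries). Called genes made up 6.43% of those tested over all retained barcodes, 11.8% in endothelial, 12.4% in fibroblast, 6.57% in macrophage and 4.61% in T cell barcodes, and 0.404% in high-mitochondrial barcodes. Nearly all of them were lower in disease. In the same order, 5 were higher and 1036 lower, 47 and 1470, 46 and 1657, 10 and 737, 1 and 453, and 0 and 51. Genes called higher in disease were thus rare in every fit. With DESeq2 the count of members called was also 0 in all 6. At an unadjusted p below 0.05 there were 0, 1, 0, 2 and 0 members in the 5 retained sets and 1 in the high-mitochondrial set. Myh6 over all retained barcodes was 20.6 and 30.6 CPM in control and 28.2, 8.64 and 20.9 CPM in disease, with overlapping groups (log2 difference -0.41, SE 0.45, edgeR adjusted p = 0.66). The median over the 10 members was -0.26 against 0.02 over all genes. In endothelial barcodes Myh6 differed by -0.39 (SE 0.29, edgeR adjusted p = 0.46) and in macrophages by 0.23 (SE 0.32, edgeR adjusted p = 0.72). Endothelial Pln, at 96.5 and 73.9 against 90.2, 71.9 and 92.8 CPM, differed by -0.07 (SE 0.17), a sign that turned without control 1 (0.12) or disease 4 (0.04).

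Nppa was tested in 5 of the 6 fits (in T cells it did not pass the low-count filter), with positive differences of which none passed the adjusted test. In fibroblasts it differed by 0.50 (SE 0.96, edgeR adjusted p = 0.77), with control 2 the highest of the 5 libraries, and from -0.50 without control 1 to 2.21 without control 2. Over all retained barcodes it was 0.679 and 1.48 CPM in control and 2.12, 1.43 and 4.41 in disease, a log2 difference of 1.34 (SE 0.60, edgeR adjusted p = 0.39), and disease 4 lay inside the control range. In endothelial barcodes the groups did not overlap, and it differed by 2.13 (SE 0.82, edgeR adjusted p = 0.19), with disease 5 at 8.58 CPM far above the rest. Without disease 5 that difference was 1.21, and over all retained barcodes 0.78. In macrophages the groups did not overlap (1.62 and 1.99 against 3.63, 3.47 and 4.87 CPM), with a difference of 1.28 (SE 0.39, edgeR adjusted p = 0.14). How many of all genes had genotype groups without overlap was not counted. With 2 against 3 libraries such a split is easily reached, so no conclusion is drawn from it. In high-mitochondrial barcodes it was 3.05 and 8.49 against 51.1, 13.2 and 17.5 CPM, a difference of 2.47 (SE 0.77, edgeR adjusted p = 0.27). Without disease 4 this passed (2.84, edgeR adjusted p = 0.048), and without the intact-looking barcode of disease 3 the difference was 1.55 (edgeR adjusted p = 0.26).

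**Figure D5:**
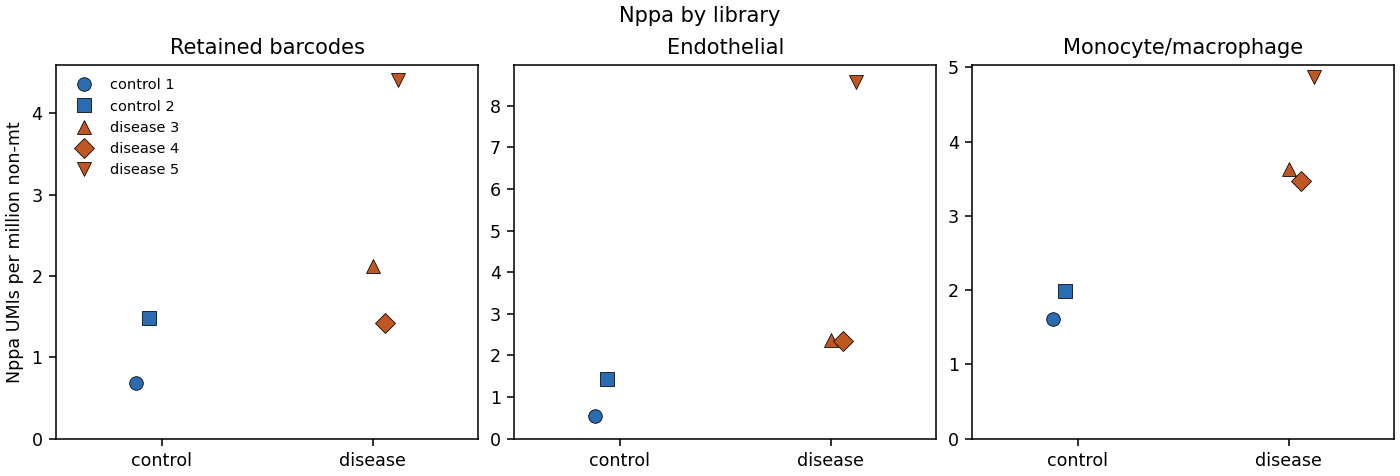
Nppa CPM by genotype in all retained barcodes, endothelial and monocyte/macrophage barcodes; each point is 1 library, and each panel has its own linear axis from 0. The groups overlap in retained barcodes (0.679 to 1.48 against 1.43 to 4.41), and in macrophages they do not (1.62 and 1.99 against 3.47 to 4.87).

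Other genes typical of atrial muscle did not move with Nppa in all disease libraries. In retained barcodes the atrial light chain Myl7 had 2.54 and 0.218 CPM in control and 8.48, 1.41 and 1.42 in disease, and Myl4 had 0.739 and 0.872 against 3.22, 0.434 and 1.25. Both were highest in disease 3, where Nppa in retained barcodes was second to disease 5. Sln had UMIs in 3 of the 5 libraries and reached 1.06 CPM in disease 3 only. How much atrial tissue each pool of hearts gave is not given in the sources used here, and its part in the Nppa values was not tested. Macrophage Tnni3 was the other member with an unadjusted p below 0.05, at 32.5 and 39.8 CPM in control and 26.3, 23.4 and 24.1 in disease (log2 difference -0.44, SE 0.17, edgeR adjusted p = 0.23). Its groups did not overlap, though the share of all genes for which this held was not counted, and neither result passed adjustment over all genes.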

How the data were processed

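Each library was deposited as a matrix of raw UMI counts, and its header names Cell Ranger 3.1.0. The submitters' processing notes list Cell Ranger 3, Seurat 3 and the builds mm10 and GRCh38, and the annotation and cell-calling rule are not given in the sources used here. Members, gene lists and marker genes were chosen with earlier results of these data known. Barcodes were filtered, gated by marker UMIs and summed per library and lineage (numpy 2.4.6, pandas 2.3.3), and levels are given as CPM, UMIs per 1000000 non-mitochondrial UMIs. Thinning drew 1000 UMIs per barcode. Sums were tested with edgeR 4.0.16 (quasi-likelihood, TMM, filterByExpr, adjusted p below 0.05), with DESeq2 1.42.0 as an alternative. Each library paired its own classes or lineages as a block, since both sets of barcodes come from the same pool of hearts; genotypes share no replicate numbers. The fits were run on simulated counts with large changes in well-counted genes, which does not cover small differences or sparse members such as Nppa, Nppb and Myh7. Intervals are 95% exact Poisson and cover counting error only. The genes named are the 10 members, the listed genes and the 10 genes most like Myh6; Spi1, the targeted genes and the genes that divide endothelial barcodes were added after values were seen. Alternatives were another tool, scaling, filter, gate or mitochondrial limit, and each library left out.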

Additional observations from a re-analysis of the deposited data

Results flagged for a closer look

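Ratios within a library were examined over the libraries in which they could be formed (4 or 5). A value was singled out where its gap to the next value took up most of the range, as in 6 of 26 sets here. For normally distributed values this happens in about 1 of 20 sets. That rate need not hold for ratios of small counts, so the number of sets is not read as an excess. For barcodes over 10% mitochondrial UMIs against retained ones, disease 3 stood apart for Ttn at a ratio of 11.8 (next 4.12) and for Nppa at 24.1 (next 9.22). Without its intact-looking barcode these ratios were 2.33 and 6.04. For macrophages against T cells, Myh6 stood apart in disease 4 at 6.95 (next 3.06), while disease 3 had 0 Myh6 UMIs in T cells and gave no ratio. For macrophages against endothelial barcodes, Pln stood apart in control 2 at 0.253 (next 0.159), and Nppb in disease 4 at 0.580 (next 0.108), from 12 and 10 UMIs. Myh7 stood apart in disease 3 at 0.255, from 1 macrophage UMI against 10 in endothelial barcodes, while disease 4 had 4 against 0 and gave no ratio.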

How the results depend on the processing

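The number of members called (adjusted p below 0.05) was within 1.5 times of that reported in 111 of 114 repeats under another setting. Most of these repeats belong to the genotype fits and the interaction, where the reported count was 0 and 0 again was scored as unchanged. Keeping myocyte-rich barcodes in the lineages could change nothing, since no gated retained barcode was among them. The share is therefore no measure of how stable the results are. In barcodes over 10% mitochondrial UMIs, 0 members differed between the genotypes in the fit as reported and 0 to 1 when a library was left out. For barcodes over 10% against retained ones the count was 9, 9 to 10 with a library left out, and 1 with UMIs per barcode as the scale. For the interaction of class and genotype it was 0, and 1 with no low-count filter. With a library left out, macrophages against endothelial barcodes gave 7 to 9 members and against T cells 7, and the genotype fits of all retained, endothelial, fibroblast, macrophage and T cell barcodes gave 0. Without the replicate block 9 members were called in barcodes over 10% against retained ones, 7 of 8 tested in macrophages against endothelial barcodes and 6 of 7 tested against T cells, where fewer members passed the low-count filter, and over all genes the first comparison gave 5118. No paired analysis was possible because the genotypes share no replicate numbers. Signs turned for members that were not called: Myh6 between genotypes in fibroblasts (-0.0065 without disease 5 to 0.39 without disease 4) and in barcodes over 10% (-0.39 without disease 3 to 0.68 without disease 4, and without the intact-looking barcode (-0.29) and without myocyte-rich barcodes (-0.23), these 2 chosen after seeing the data); Ttn in the interaction (-0.092 without that barcode and -0.10 without myocyte-rich ones, and 0.05 to 1.55 with a library left out); Pln between genotypes in endothelial barcodes (-0.25 without control 2 to 0.12 without control 1, and 0.04 without disease 4); Nppa in fibroblasts (-0.50 without control 1 to 2.21 without control 2); and Ttn in macrophages against T cells (-0.60 without disease 4 to 0.13 without control 1, 0.12 without disease 3, and 0.26 per barcode). On the per-barcode scale Tnnt2 (-0.15), Tnni3 (-0.047) and Actc1 (-0.10) turned in barcodes over 10%. The cause was not tested. Over all genes, the genotype counts moved by over 1.5 times with DESeq2 (1743 against 1041 in retained, 338 against 51 in barcodes over 10%) and with no filter (1196 against 747 in macrophages, 959 against 454 in T cells, 231 in barcodes over 10%, where plain totals gave 106 and a 25% limit 7). That limit gave 4169 in place of 9171 genes for the class comparison, and the interaction count over all genes of 27 became 120 with DESeq2, 437 with no filter, 44 with plain totals and 16 with that limit. Without disease 5 the genotype counts fell to 121 in retained, 747 in endothelial, 871 in fibroblast, 183 in macrophage and 0 in T cell barcodes; without control 2 to 173, 717, 755 and 266 in the first 4; without control 1 to 339 in retained, 1105 in fibroblast, 245 in macrophage and 181 in T cell barcodes; and without disease 4 to 130 in T cells. In barcodes over 10% they were 783 without disease 4 and 0 without each other library; the interaction gave 335 without disease 4, 3 without disease 5 and 0 without either control. Thinned to 500 UMIs, the mean share of barcodes with a member UMI was 24.1% in endothelial and 7.08% in macrophage barcodes. Myh7, Nppa and Nppb had few UMIs in most lineages, and a lineage with 0 UMIs of a member may still hold it.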

Other observations

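A further sarcomere gene did not follow the members. Actn2, which encodes the alpha-actinin of the Z-disc, had 17.6 CPM in T cell barcodes over all libraries, above its level in endothelial (10.99 CPM) and fibroblast barcodes (0.685 CPM). By library, T cell Actn2 was 19.7 and 16.4 CPM in control and 40.6, 16.8 and 14.4 CPM in disease, each above the endothelial value of the same library (12.6, 13.0, 10.5, 6.17 and 10.7 CPM). T cells had the lowest summed member CPM of the main lineages. Actn2 was chosen for this after its values were seen, and no test was made.

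Several calcium handling genes were, like Pln, denser in mural than in endothelial barcodes over all libraries. Besides Casq2, the calcium pump gene Atp2a2 had 353 CPM in mural and 82.1 CPM in endothelial barcodes, and the voltage-gated channel gene Cacna1c had 82.6 and 0.925 CPM. Myom1, a gene of the sarcomere M-band, had 97.5 CPM in mural barcodes against 7.17 CPM in endothelial ones. Ttn, Myh6 and Mybpc3 had 8.13, 25.7 and 2.71 CPM in mural barcodes, below 32.5, 59.7 and 12.1 CPM in endothelial ones. Tnnt2 had 158 CPM in mural against 212 in endothelial barcodes, and the mural value was the higher in control 2 and disease 4. Mural values rest on 218 barcodes.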
